A study of Mus musculus with 4 samples.

Results

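The translation initiation factors (eIF) and elongation factors (eEF) were followed in the spleen of Snd1 knockout (KO) mice. The members were all probes whose annotated gene symbol starts with Eif or Eef and a digit, which gave 95 of the 25697 probes of the array and 58 of its 16593 named genes. RNA came from 2 KO and 2 wild-type (WT) mice, all female, of the C57BL/6N strain and labelled as 8 to 12 weeks old, and every spleen sample was read on 1 Illumina MouseRef-8 v2.0 bead array. For the mice of these arrays a legend of the study names the lower end of that age range. The KO mice were homozygous for a germline deletion of the first exon of Snd1, made by crossing a loxP-flanked line, derived from embryonic stem cells of another strain, with CAG-Cre mice, which express Cre in all tissues, and backcrossing to C57BL/6N. The WT mice carried no deletion, and the methods name littermates of heterozygous parents as the source of the animals, without treatment. The comparison asked whether the mRNAs of the translation machinery differ in a spleen that lacks Snd1, an RNA-binding protein.

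Translation starts when eIF2, carrying GTP and the initiator tRNA, joins the small ribosomal subunit together with eIF1, eIF1A, eIF3 and eIF5, and the eIF4 factors bring in the capped mRNA. The exchange factor eIF2B recharges eIF2 with GTP, and the eIF2α kinases block that step under stress, which lowers overall protein synthesis while the transcription factor ATF4 is made. Elongation is carried by eEF1A, which delivers aminoacyl-tRNA and is recharged by the eEF1B subunits, and by eEF2, which moves the ribosome along the mRNA. Many mRNAs for elongation factors, some initiation factors and ribosomal proteins begin with a run of C and T bases at the transcription start, through which mTOR controls their translation. In the spleen, which holds lymphocytes, myeloid cells and, in the mouse, red cell precursors, the demand on this machinery differs between resting and dividing cells.

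The sequence around the annotated transcription start is shown for 7 member genes, because a run of C and T bases or a shared promoter motif lies at or near that position. The windows run from 15 bases before the start to 14 bases after its first base, 5′ to 3′ on the strand of the gene, from RefSeq on GRCm38.p6. In the first 4 the capitals mark the C/T run as far as it lies in the window. Each of these runs begins before the annotated start, and whether the mRNA begins with such a run was not tested. In the last 3 the capitals mark the motif CCGGAAGT, a form of the site bound by ETS-family transcription factors.
Eef1a1, chr9:78481710-78481739, minus strand: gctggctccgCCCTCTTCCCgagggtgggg
Eif3f, chr7:108934400-108934429, plus strand: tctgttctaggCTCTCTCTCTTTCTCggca
Eif2s3x, chrX:94212637-94212666, minus strand: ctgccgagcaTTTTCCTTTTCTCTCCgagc
Eif2b5, chr16:20498802-20498831, plus strand: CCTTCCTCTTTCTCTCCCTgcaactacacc
Eef1b2, chr1:63176816-63176845, plus strand: tggacctgcagttccgCCGGAAGTagccga
Eif4e2, chr1:87213896-87213925, plus strand: ctgagcgcctcgccagccaaCCGGAAGTag
Eif2b4, chr5:31193125-31193154, minus strand: cgggacccagtgcacgCCGGAAGTtgtagt

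Of the 58 member genes, 45 had a promoter window of 250 bases before to 50 bases after the start in that table. The motif CCGGAAGT, or its reverse complement ACTTCCGG on the other strand, was found in the window of 9 of the 45 (20.0%), against 4.31% of all 27025 genes with a window. A run of at least 8 C or T bases on the strand of the gene, reaching within 5 bases of the start, was found in 11 members (24.4%), against 11.4% of all genes. Such a match is a description of the letters only.

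The deposited signals had a median of 112.4 and 114 on the KO arrays and of 113.8 and 112 on the WT arrays, and 12684 to 12908 probes were above background (a detection p under 0.05) on a KO array and 12396 to 12609 on a WT array. Snd1 itself, read by 1 probe, had normalized log2 intensities of 4.45 and 4.58 in KO, not above background, against 6.71 and 7.09 in WT, which made it at least 3.86-fold lower in KO (limma adjusted p = 0.0871). The bound was set against the lowest signal detected on each KO array. The sources used here do not say where this probe lies relative to the deleted exon.

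Marker lists were read on each array as a check of the labelled tissue. All 9 B cell genes were above background on every array, and of 12 T cell genes 10 on each KO array and 11 on each WT array. Lat was above background in WT only, at 4.63 and 4.46 in KO against 6.38 and 6.85 in WT (limma adjusted p = 0.238). Genes of other tissues were not evenly spread over the arrays. Of 18 exocrine pancreas genes 17 and 5 were above background on the KO arrays, against 5 and 4 on the WT arrays, and of 18 liver genes 10 and 9 on the KO arrays, against 1 and 0 on the WT arrays. Of 11 adipocyte genes the counts were 4 and 7 in KO against 3 in each WT array, and of 10 mesothelium genes 5 in each KO array against 4 in each WT array. The summed intensity of the pancreas genes was 7588 and 700.1 in KO against 879.1 and 719.1 in WT, and that of the liver genes was 1409 and 988.6 in KO against 431.8 and 422.3 in WT. For the adipocyte genes the sum was 2128 and 3046 in KO against 1504 and 1376 in WT, and for the mesothelium genes 1215 and 1348 in KO against 622.2 and 673.5 in WT. All of the tested pancreas, liver and mesothelium genes had the higher mean in KO. A gene was tested if above background on both arrays of a group, and every tested liver gene met this in KO only. The same held for Gp2 and Cela3b of the pancreas list and Upk1b of the mesothelium list, so the filter favoured this direction. Untested genes are not counted, and some of them, such as Gpm6a, had the lower mean in KO. The summed intensity of 12 plasma cell genes was 15818 and 11582 in KO against 9111 and 10073 in WT, and that of 12 neutrophil granule genes was 3967 and 1347 in KO against 6966 and 5613 in WT. The part of these cells in the values of the translation factors was not tested. In bulk RNA, fewer cells of a type and less RNA per cell cannot be told apart.

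No translation factor passed the test between KO and WT spleens. By limma, with Benjamini-Hochberg adjustment over all 12493 tested probes, 0 of 71 tested member probes passed an adjusted p of 0.05, where 2 probes of the whole table (0.016%) passed, and the smallest adjusted p of a member was 0.771. At an unadjusted p under 0.05 there were 3 member probes, all lower in KO, for Eef1aknmt, Eef1b2 and Eif4e2. They were 4.23% of the tested members, against 6.09% of all tested probes, of which 3.31% were higher and 2.78% lower. With 2 arrays in each group, an exact two-sided permutation p could not fall below 0.333.

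The differences were small. With 1 probe per gene, the one of highest mean over the 4 arrays, 18 of 45 genes had the higher mean in KO and 27 the lower, with a median log2 fold change of -0.04, against -0.0053 over all tested probes. Of all tested member probes 45 of 71 had the lower mean in KO, against 51.1% over the table. The median size of the log2 difference was 0.10 over the 45 genes and 0.11 over their 71 probes, against 0.16 over all tested probes. Of the 71 member probes 7 (9.86%) differed by 1.25-fold or more, against 18.2% over the table, and among probes with a mean log2 intensity of 9 or more it was 2 of 43 members, against 12.2%. On the brightest probes, the two-sided 95% confidence interval of the difference lay within 2-fold for 44 of the 45 genes and within 1.5-fold for 32. The exception at 2-fold was Eif2ak1. Of all 71 tested member probes the interval lay within 2-fold for 70 and within 1.5-fold for 43.

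**Figure D1:**
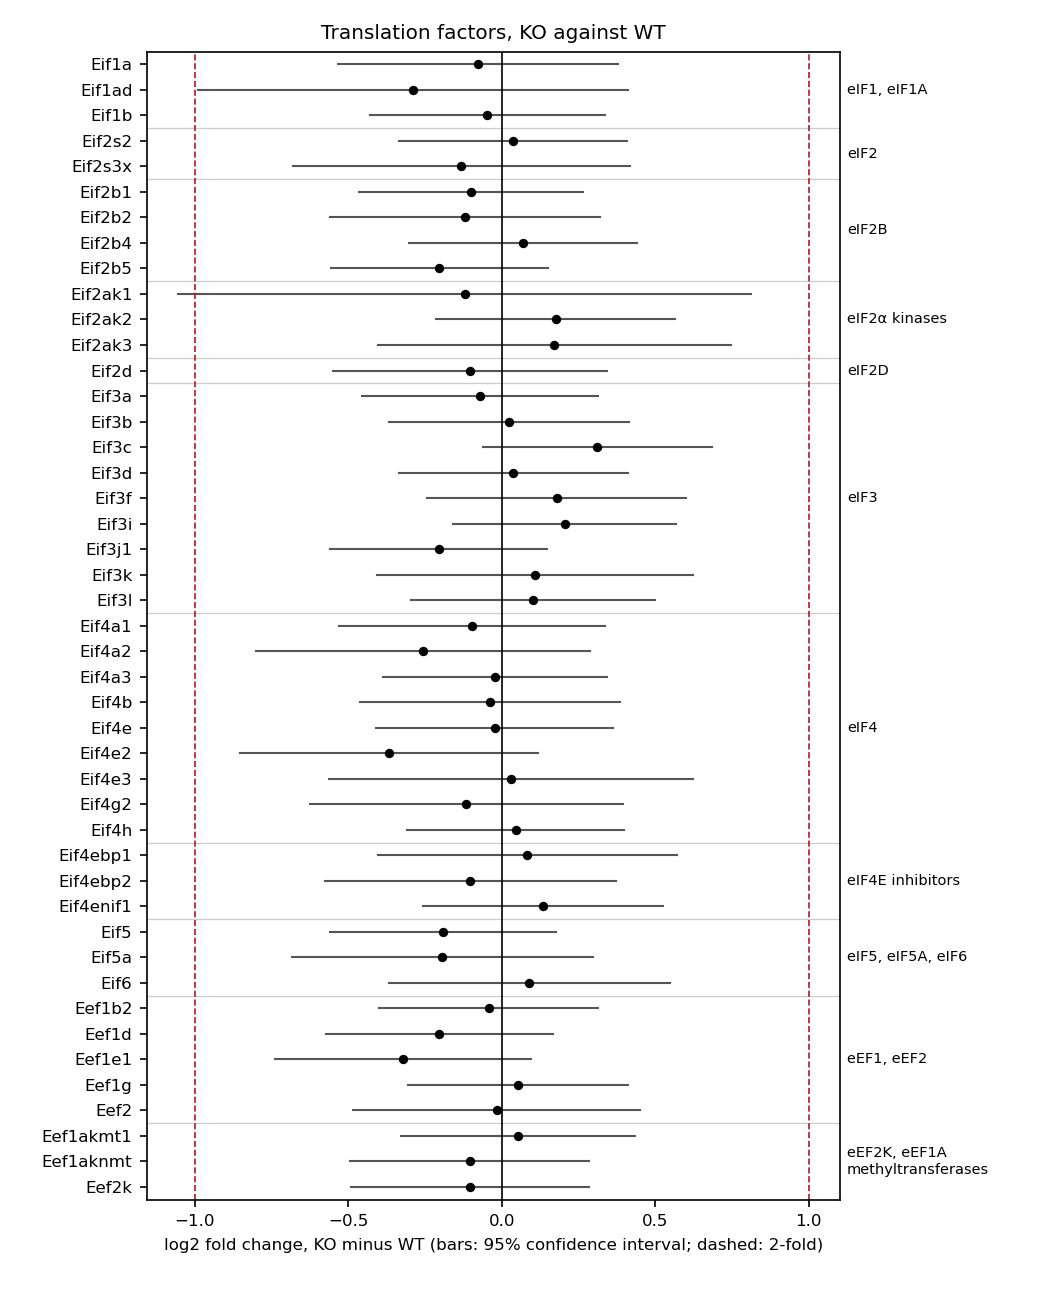
The x axis gives the log2 fold change, KO minus WT, for the brightest tested probe of each of the 45 genes, grouped by class down the y axis. Points are the fitted differences, bars their 95% confidence intervals (limma, 2 arrays per group), and the dashed lines mark 2-fold. Every interval holds 0, and the interval of Eif2ak1 alone reaches past a dashed line.

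The groups also overlapped in most cases. In 23 of the 71 probes both KO values lay on 1 side of both WT values, 6 above and 17 below, where 37.9% of all tested probes did so, 19.4% above and 18.5% below. Among the 45 genes it was 5 above (Eif2ak2, Eif3c, Eif3f, Eif3i and Eif4enif1) and 7 below (Eef1d, Eef1e1, Eif2b1, Eif2b5, Eif3j1, Eif4e2 and Eif5). For 55 of the 71 probes (77.5%) the difference between KO and WT was smaller than the larger of the differences between replicates, against 74.1% of all tested probes.

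**Figure D2:**
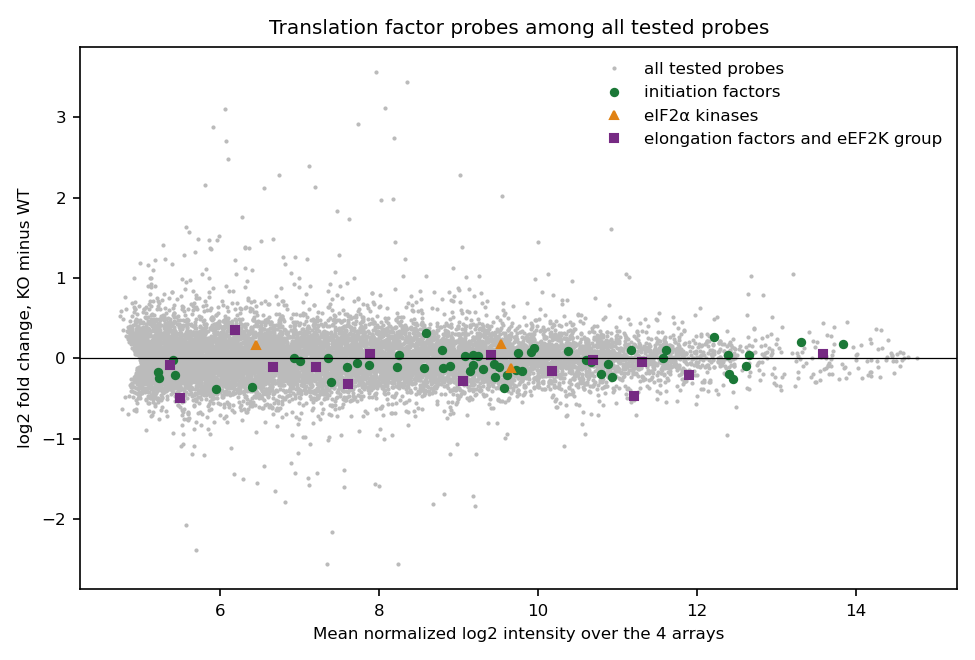
Each point is a tested probe, with its mean normalized log2 intensity over the 4 arrays on the x axis and its log2 fold change, KO minus WT, on the y axis. The 71 member probes, coloured as initiation factors, eIF2α kinases and elongation factors with their modifying enzymes, lie between -0.50 and 0.36 on the y axis, inside the range of the grey points, which are all tested probes.

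All 71 tested member probes were above background on all 4 arrays. The median over these probes was 9.40 and 9.28 on the KO arrays against 9.49 and 9.38 on the WT arrays (normalized log2 intensity), where the median of all tested probes was 7.4 on each array. Levels of different probes were not ranked, since they depend on the probe. Of the other 24 probes, 23 were above background on no array, and 1, a second transcript probe of Eef1d, on 1 KO array. Thus no factor was seen in 1 group and not in the other.

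For 13 genes no probe was tested. They were Eef1a1, the carrier of aminoacyl-tRNA, Eef1a2, its form in muscle and neurons, the eEF1A methyltransferase Eef1akmt2, Eif1ax, the kinase Eif2ak4, the eIF2γ copy Eif2s3y on the Y chromosome, the eIF3 subunits Eif3e, Eif3h and Eif3m, the oocyte cap-binding factor Eif4e1b, the inhibitor Eif4ebp3, Eif5a2 and the subunit-joining GTPase Eif5b. The 1 Eef1a1 probe had deposited signals of 95.1 and 90.1 in KO against 97.1 and 92.2 in WT, with detection p-values of 0.608 and 0.919 in KO against 0.617 and 0.828 in WT. The mRNA is known to be abundant in most cells. A probe not well above background gives no level of the transcript, and how well this probe reads it was not tested. The closest to detection of these 13 was Eif3h, with signals of 107.9 and 113 in KO against 111.4 and 111 in WT and detection p-values of 0.1 and 0.0576 in KO against 0.0739 on each WT array.

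**Figure D3:**
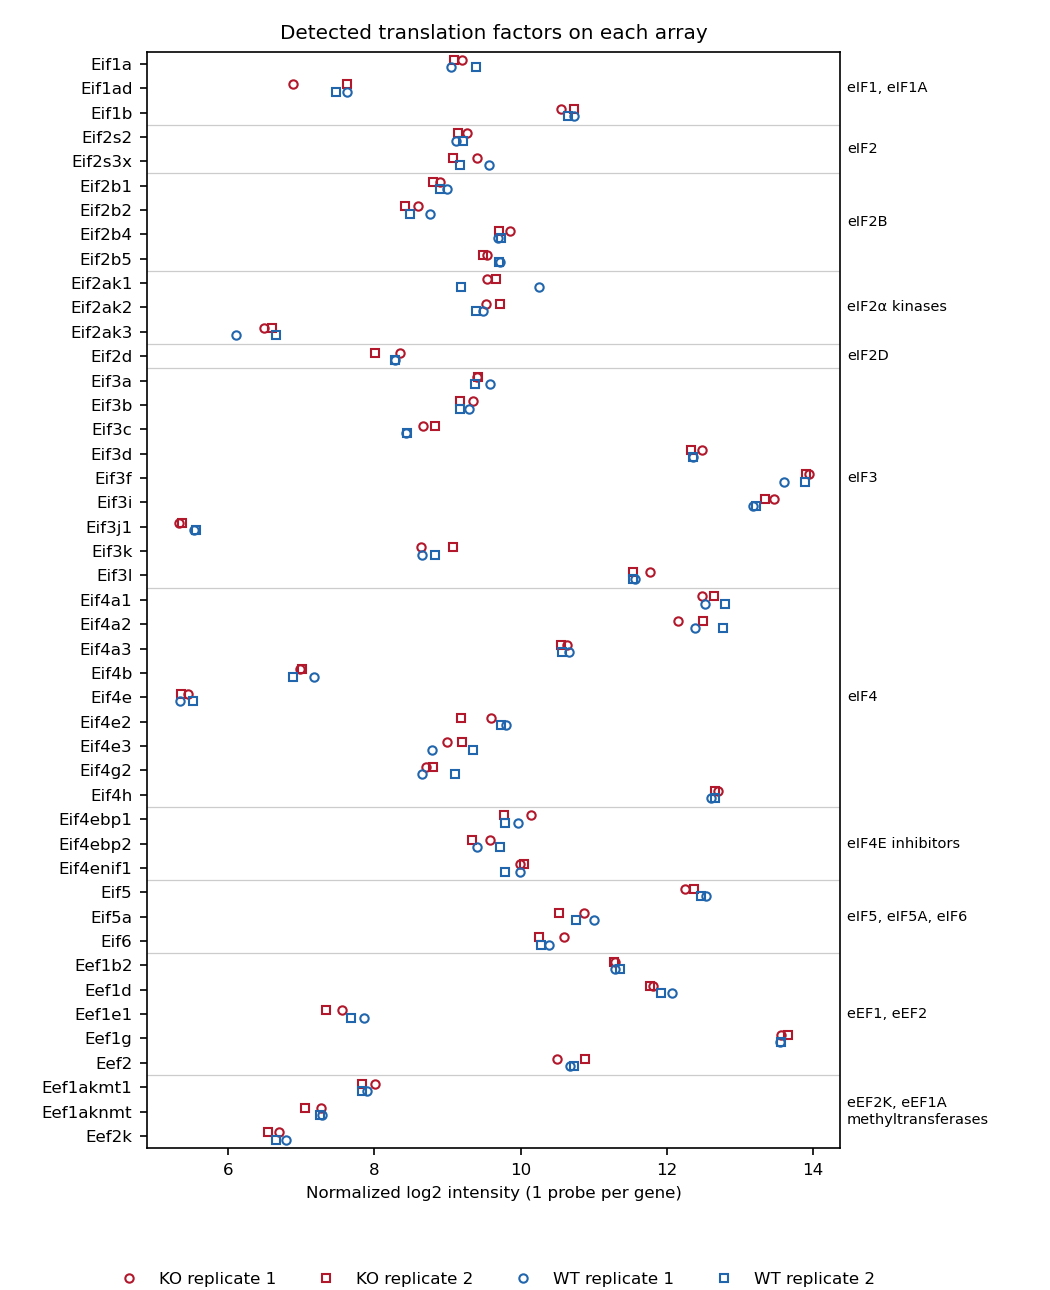
The x axis gives the normalized log2 intensity of the brightest probe of each of the 45 genes, grouped by class down the y axis. Red marks are the 2 KO arrays and blue marks the 2 WT arrays, with circles for replicate 1 and squares for replicate 2. For 33 of the 45 genes the red and blue marks overlap, and the widest gap between marks of 1 colour is that of Eif2ak1 in WT.

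The eIF2α kinases are 4 enzymes that answer to different stresses, and 3 of them were measured. Eif2ak1 encodes HRI, the kinase that senses lack of heme and is known for its part in red cell precursors. Its normalized log2 intensity was 9.54 and 9.66 in KO, against 10.25 and 9.19 in WT. Both KO values lay between the WT values, whose difference of 1.07 was the largest between replicates of any tested member probe. The log2 difference of -0.12 ± 0.36 (SE, limma adjusted p = 0.960, 95% interval -1.05 to 0.81) became 0.41 without WT replicate 1 and -0.65 without WT replicate 2. The sum over red cell genes had the same extremes. The summed intensity of 12 erythroid genes was 41811 and 46958 in KO against 59662 and 28165 in WT, with 10 of 12 above background on every array and Rhd and Epb42 on none. The median log2 intensity of the list was 8.71 and 8.50 in KO against 9.82 and 6.41 in WT. The red cell anion exchanger Slc4a1 was at 13.58 and 13.88 in KO against 14.38 and 10.97 in WT. Not every gene of the list had these extremes, and Hba-a1 was at 14.51 and 14.57 in KO against 14.49 and 14.48 in WT. The summed intensity of 14 cell cycle genes was 9553 and 6271 in KO against 11299 and 3938 in WT, again highest on WT replicate 1 and lowest on WT replicate 2. The part of these cells in the Eif2ak1 values was not tested.

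Eif2ak2 encodes PKR, the interferon-induced kinase that binds double-stranded RNA. It was at 9.53 and 9.71 in KO against 9.49 and 9.40 in WT, so that both KO values lay above both WT values, by 0.03 between the closest arrays. The log2 difference was 0.18 ± 0.15 (SE, limma adjusted p = 0.837, 95% interval -0.21 to 0.57), a ratio of 1.13, and it stayed positive in every alternative, between 0.08 and 0.27. Eif2ak3 encodes PERK, the kinase in the membrane of the endoplasmic reticulum. It was at 6.49 and 6.60 in KO against 6.10 and 6.65 in WT, a log2 difference of 0.17 ± 0.22 (adjusted p = 0.913, limma), which became -0.11 without WT replicate 1. Eif2ak4 encodes GCN2, which binds uncharged tRNA. Its probe was not above background on any array, with signals of 92.3 and 98.7 in KO against 89.3 and 93.4 in WT.

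**Figure D4:**
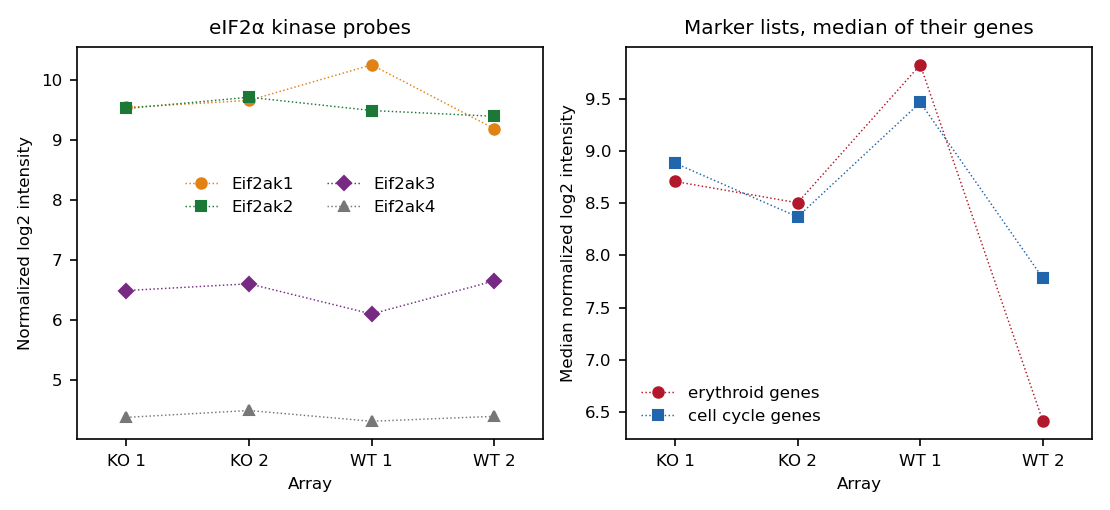
The left panel shows the normalized log2 intensity of the 4 eIF2α kinase probes on each array, and the right panel the median normalized log2 intensity of the erythroid and cell cycle lists on the same arrays. Eif2ak1 and both lists are highest on WT replicate 1 and lowest on WT replicate 2, with the KO arrays between, while Eif2ak4 lies at background. The dotted lines join arrays for reading only, and each probe has its own scale.

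The target of these kinases, eIF2, was covered by its β and γ subunits. Eif2s2, the β subunit, was at 9.27 and 9.14 in KO against 9.12 and 9.21 in WT (log2 difference 0.04 ± 0.15, SE). Eif2s3x, the γ subunit that binds GTP and the initiator tRNA, was at 9.41 and 9.07 in KO against 9.57 and 9.17 in WT (-0.13 ± 0.21). The groups of both genes overlapped. The copy Eif2s3y was not above background on any of these arrays of female mice. Eif2d, which can place a tRNA on the ribosome outside the eIF2 complex, was at 8.35 and 8.00 in KO against 8.27 and 8.28 in WT (-0.10 ± 0.17).

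Of the exchange factor eIF2B 4 subunits were measured, 3 with the lower mean in KO. Eif2b5, the catalytic ε subunit, was at 9.53 and 9.48 in KO against 9.72 and 9.70 in WT, with no overlap and a log2 difference of -0.20 ± 0.14 (SE, limma adjusted p = 0.785, 95% interval -0.56 to 0.15). A second Eif2b5 probe gave 9.41 and 9.28 in KO against 9.53 and 9.62 in WT, and the third gave 8.22 and 8.31 in KO against 8.10 and 8.36 in WT. Thus 2 of its probes were lower without overlap and 1 was not. Eif2b1, the α subunit, was at 8.89 and 8.80 in KO against 8.99 and 8.90 in WT, where the closest KO and WT values differed by 0.0083 on the log2 scale. Its log2 difference was -0.10 ± 0.14 (SE) on that probe and also -0.10 ± 0.14 on the other. Eif2b2, the β subunit, was at 8.59 and 8.41 in KO against 8.76 and 8.48 in WT. Eif2b4, the δ subunit, was at 9.85 and 9.71 in KO against 9.69 and 9.74 in WT. The class median was -0.11, with 0 of 4 genes called.

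The 3 start-site factors measured, Eif1b, Eif1a and Eif1ad, all had the lower mean in KO, with groups that overlapped, but without KO replicate 1 it was 1 of 3. No member probe was annotated to Eif1 itself. Eif1b was at 10.56 and 10.73 in KO against 10.74 and 10.65 in WT. Eif1a was at 9.20 and 9.08 in KO against 9.05 and 9.39 in WT. Eif1ad, named for its eIF1A-type domain, was at 6.89 and 7.63 in KO against 7.62 and 7.48 in WT. The lower mean of Eif1ad (-0.29 ± 0.27, SE) rested on KO replicate 1, without which the log2 difference was 0.08.

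eIF3, the largest initiation factor, holds the small ribosomal subunit ready for the mRNA, and 9 of its 12 genes on the array were measured. Of these 7 had the higher mean in KO and 2 the lower, with a median of 0.10, and 0 passed. Eif3c, a core subunit, was at 8.67 and 8.83 in KO against 8.43 and 8.44 in WT. Both KO values were higher, with a log2 difference of 0.31 ± 0.15 (SE, limma adjusted p = 0.771, 95% interval -0.06 to 0.69), a ratio of 1.24 and the largest positive difference among the 45 genes. Eif3i, a subunit built as a propeller of WD repeats, was at 13.47 and 13.35 in KO against 13.19 and 13.22 in WT (0.21 ± 0.14). Its second probe gave 12.38 and 12.30 in KO against 11.94 and 12.22 in WT, but the third gave 10.81 on both KO arrays against 11.08 and 11.01 in WT, lower without overlap.

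Eif3f, a subunit with an MPN domain, was at 13.94 and 13.91 in KO against 13.60 and 13.89 in WT. This difference was carried by WT replicate 1 (0.18 ± 0.16, SE, and 0.04 at its lowest among the alternatives). Eif3j1, a loosely bound subunit, was at 5.32 and 5.37 in KO against 5.54 and 5.56 in WT (-0.21 ± 0.14), close to the background. Eif3b, a core subunit that holds other subunits together, was at 9.34 and 9.17 in KO against 9.30 and 9.17 in WT (0.02 ± 0.15). The remaining Eif3a, Eif3d, Eif3k and Eif3l differed by -0.07 to 0.11. The median of the class, 0.10, became -0.016 without KO replicate 1, with 4 genes higher and 5 lower.

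The eIF4 factors bind the cap, unwind the leader of the mRNA and bridge it to the ribosome, and 7 of the 9 genes measured had the lower mean in KO, a count that turned to 4 of 9 with median scaling and also without WT replicate 2. Eif4e2, a cap-binding protein that represses translation of the mRNAs it holds, was at 9.60 and 9.19 in KO against 9.79 and 9.73 in WT. This difference of -0.37 ± 0.19 (SE, limma adjusted p = 0.771, 95% interval -0.85 to 0.12) was the largest in size among the 45 genes. Of its other probes 1, annotated to another transcript, gave 5.74 and 5.79 in KO against 6.09 and 6.18 in WT (-0.38 ± 0.14, unadjusted p = 0.0436, limma), and the other gave 7.10 and 6.76 in KO against 6.998 and 6.86 in WT. Hence 2 of the 3 Eif4e2 probes were lower without overlap and the difference of the remaining probe was 0.0026. The sign of the brightest probe held in every alternative, between -0.57 and -0.16.

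The helicases Eif4a1 and Eif4a2 unwind the leader. Eif4a2 was at 12.15 and 12.50 in KO against 12.39 and 12.77 in WT (-0.26 ± 0.21, SE). Eif4a1 was at 12.49 and 12.64 in KO against 12.52 and 12.80 in WT (-0.10 ± 0.17). For both genes replicate 2 was the higher array in each group. Eif4e3, a cap-binding relative of eIF4E, was at 8.996 and 9.20 in KO against 8.79 and 9.35 in WT (0.03 ± 0.23), while a dimmer probe gave 6.26 and 6.21 in KO against 6.52 and 6.65 in WT (-0.35 ± 0.14). Eif4g2, a scaffold without the eIF4E-binding site, was at 8.71 and 8.80 in KO against 8.65 and 9.10 in WT (-0.12 ± 0.20). The others, Eif4a3 of the exon junction complex, the helicase cofactors Eif4b and Eif4h and the cap-binding Eif4e, differed by -0.04 to 0.05. The Eif4e probe was close to the background, at 5.45 and 5.35 in KO against 5.34 and 5.51 in WT, so its small difference says little about the transcript.

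Of the proteins that hold eIF4E away from the ribosome, 3 were measured. Eif4ebp1, an inhibitor released when mTOR phosphorylates it, was at 10.15 and 9.77 in KO against 9.96 and 9.79 in WT (0.08 ± 0.19, SE). Eif4ebp2, its relative, was at 9.57 and 9.34 in KO against 9.40 and 9.72 in WT (-0.10 ± 0.18). Eif4enif1, which carries eIF4E into the nucleus and to processing bodies, was at 9.995 and 10.04 in KO against 9.988 and 9.78 in WT (0.13 ± 0.15). Its KO values were above both WT values by as little as 0.0072 on the log2 scale, and its second probe had overlapping groups and the opposite sign (-0.06 ± 0.15).

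Among the late factors, Eif5, which makes eIF2 split its GTP at the start codon, was at 12.25 and 12.37 in KO against 12.54 and 12.46 in WT. The groups did not overlap and the log2 difference was -0.19 ± 0.14 (SE, limma adjusted p = 0.807, 95% interval -0.56 to 0.18). The other 2 Eif5 probes differed by 0.0079 and -0.15 with groups that overlapped. Eif5a, the hypusine-bearing factor that frees stalled ribosomes, was at 10.86 and 10.52 in KO against 11.01 and 10.76 in WT (-0.19 ± 0.19). Eif6, which keeps the ribosomal subunits apart, was at 10.60 and 10.25 in KO against 10.39 and 10.28 in WT (0.09 ± 0.18).

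Of the 5 genes classed here as elongation factors, among them Eef1e1 by its name only, 4 had the lower mean in KO, with a median of -0.04. Eef1b2, an exchange subunit of eEF1B that recharges eEF1A, was read by 3 probes. Its brightest probe gave 11.30 and 11.27 in KO against 11.29 and 11.37 in WT (-0.04 ± 0.14, SE). The second gave 11.05 and 10.89 in KO against 11.47 and 11.41 in WT (-0.47 ± 0.15, unadjusted p = 0.0235, adjusted p = 0.771, limma), and the third 8.99 and 8.85 in KO against 9.34 and 9.06 in WT (-0.28 ± 0.17). Thus all 3 means were lower in KO and 2 of the probes did not overlap, but the brightest differed by a ratio of only 0.971. All 3 are annotated to 1 transcript.

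Eef1d, another exchange subunit, was at 11.81 and 11.77 in KO against 12.07 and 11.92 in WT, lower without overlap (-0.20 ± 0.14, SE). A probe of another Eef1d transcript gave 6.61 and 6.14 in KO against 6.23 and 5.80 in WT (0.36 ± 0.24), the widest gap between probes of 1 member gene. Eef1e1, which despite its name belongs to the complex of aminoacyl-tRNA synthetases, was at 7.56 and 7.34 in KO against 7.86 and 7.68 in WT (-0.32 ± 0.16, adjusted p = 0.771, limma), lower without overlap and between -0.43 and -0.21 in the alternatives. Eef1g, the scaffold subunit of eEF1B, was at 13.57 and 13.66 in KO against 13.55 and 13.57 in WT (0.05 ± 0.14, and -0.11 with median scaling). Eef2, the translocase, was at 10.50 and 10.87 in KO against 10.67 and 10.73 in WT (-0.02 ± 0.18).

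Of the enzymes that modify the elongation factors 3 were measured, 1 with the higher and 2 with the lower mean in KO. Eef2k, the kinase that switches eEF2 off, was at 6.69 and 6.54 in KO against 6.79 and 6.65 in WT (-0.10 ± 0.15, SE). Eef1akmt1, a lysine methyltransferase of eEF1A, was at 8.01 and 7.83 in KO against 7.90 and 7.83 in WT (0.05 ± 0.15). Eef1aknmt, which methylates eEF1A at its N terminus and a lysine, was at 7.27 and 7.06 in KO against 7.28 and 7.25 in WT on its brightest probe (-0.10 ± 0.15). A dim Eef1aknmt probe gave 5.34 and 5.15 in KO against 5.76 and 5.73 in WT, and its log2 difference of -0.50 ± 0.15 (unadjusted p = 0.0205, adjusted p = 0.771, limma) was the largest in size of any member probe. Another, of similar level, gave 5.28 and 5.38 in KO against 5.20 and 5.62 in WT, so that this difference was not shared by the other Eef1aknmt probes.

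Different probes of 1 gene often differed in sign, and how often this is so over the whole array was not counted. Of the 18 genes with 2 or more tested probes, 9 had probes of opposite sign (Eef1d, Eef2, Eif2b5, Eif3b, Eif3i, Eif4e2, Eif4e3, Eif4enif1 and Eif5). The gap between the log2 fold changes of probes of 1 gene reached 0.56 for Eef1d, 0.50 for Eif3i and 0.43 for Eef1b2, while it was 0.0070 for Eif3l and 0.0029 for Eif2b1. For Eef1d the gap was larger than the size of the difference of any single member probe. Where the probes lie in the transcripts was not analysed here.

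**Figure D5:**
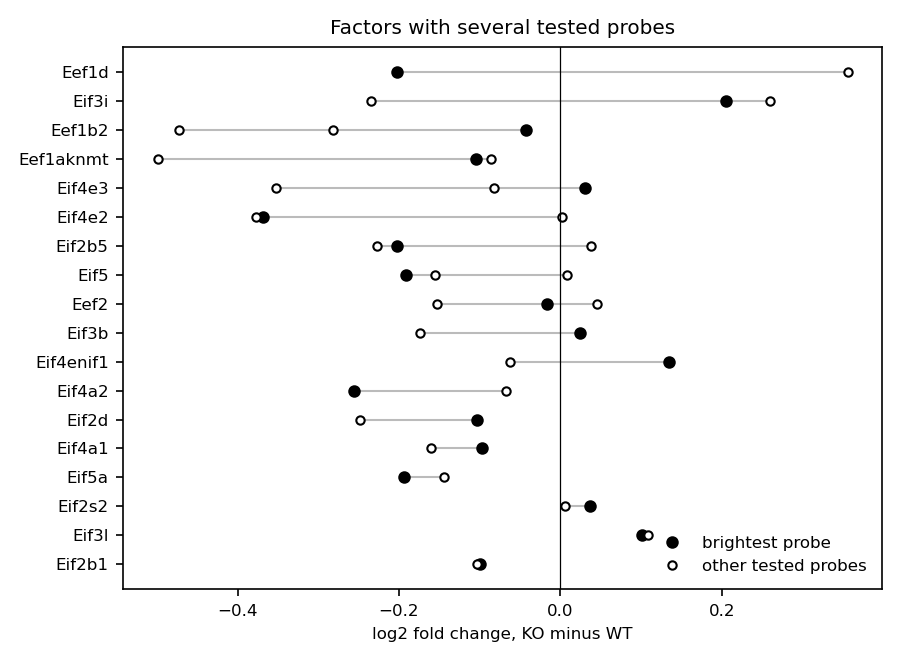
The x axis gives the log2 fold change, KO minus WT, of each tested probe of the 18 genes with 2 or more tested probes, ordered down the y axis by the gap between their probes. Filled points are the brightest probe of a gene and open points the others, joined by a grey line. The lines of 9 genes cross 0, and those of Eef1d, Eif3i and Eef1b2 are the longest.

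Side by side, the class medians of the log2 fold change lay between -0.19 and 0.17. They were 0.17 for the 3 kinases, 0.10 for 9 eIF3 genes and 0.08 for 3 eIF4E inhibitors. They were -0.04 for 9 eIF4 genes and for the 5 genes classed as elongation factors, and -0.05 for 2 eIF2 subunits. The median was -0.08 for Eif1a, Eif1ad and Eif1b and -0.10 for the 3 modifying enzymes and for Eif2d. It was -0.11 for 4 eIF2B subunits and -0.19 for 3 late factors. The sign of the median held in all 11 alternatives for the kinases (0.08 to 0.23), eIF2B (-0.18 to -0.02) and the late factors (-0.23 to -0.02). It also held for the elongation factors (-0.18 to -0.0026), and it changed in at least 1 for each other class. Of the 3 kinases, Eif2ak1 and Eif2ak3 changed sign without WT replicate 1, to 0.41 and -0.11, while the median stayed positive. Dropping the filter and the replicate block cannot change these medians, and the value table repeats the alternative without background correction. These are therefore not separate checks of the sign. No class had a called gene, and the differences between classes were not tested.

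The genes that lie downstream of phosphorylated eIF2α, among them the targets of ATF4, were read as a list beside the kinases. Of 20 genes 16 were tested, 9 with the higher and 7 with the lower mean in KO, a median of 0.13 and 0 called. Atf4 itself was at 9.42 and 9.18 in KO against 9.45 and 9.27 in WT (-0.06 ± 0.17, SE). Ddit4, which encodes the mTOR inhibitor REDD1, was at 8.91 and 9.27 in KO against 10.15 and 10.02 in WT, a log2 difference of -0.996 ± 0.18 (unadjusted p = 0.00276, adjusted p = 0.771, limma). Chac1, which encodes an enzyme that breaks down glutathione, was at 6.70 and 5.90 in KO against 5.41 and 5.11 in WT (1.04 ± 0.30, unadjusted p = 0.0179, adjusted p = 0.771, limma). The 2 genes with the smallest p therefore lay in opposite directions. At an unadjusted p under 0.05 (limma) 2 of the 16 genes were higher in KO and 1 was lower, against 6.09% of all tested probes. The groups did not overlap in 7 of the 16, 5 above and 2 below, against 37.9% of all tested probes. Of the 16 genes 6 (37.5%) differed by 1.25-fold or more, against 18.2%. Ppp1r15a, the subunit that directs the phosphatase to eIF2α, was at 9.13 and 9.12 in KO against 10.57 and 8.19 in WT, with the same extreme arrays as Eif2ak1.

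Of a list of mTOR and MNK pathway genes, which also holds the downstream Rps6, 10 of 12 were tested. Only 1 had the higher mean in KO and 9 the lower, with a median of -0.10 and 0 called, where 51.1% of all tested probes were lower. No alternative was run for this list. Rps6, the ribosomal protein phosphorylated by S6 kinase, was at 13.19 and 12.93 in KO against 13.33 and 13.47 in WT (-0.34 ± 0.16, SE, adjusted p = 0.771, limma). Mknk2, which encodes a kinase of eIF4E, was at 11.29 and 11.41 in KO against 11.49 and 11.52 in WT (-0.15 ± 0.14). The groups did not overlap in 2 of the 10 tested genes, against 37.9% of all tested probes.

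Other cytosolic factors were tested for 17 of 19 genes, 11 with the higher and 6 with the lower mean in KO, a median of 0.06 and 0 called. Dhx29, a helicase that works with eIF3 on structured leaders, was at 6.95 and 7.04 in KO against 6.69 and 6.70 in WT (0.30 ± 0.14, SE). Bzw1, a mimic of eIF5, was at 9.87 and 9.73 in KO against 9.44 and 9.59 in WT (0.28 ± 0.15). Of the mitochondrial factors 8 of 9 were tested, 6 with the higher and 2 with the lower mean, a median of 0.10 and 0 called. Mtrf1l, a mitochondrial release factor, was at 6.15 and 6.24 in KO against 5.90 and 5.84 in WT (0.32 ± 0.14), and Gfm2, a ribosome recycling factor, at 8.29 and 8.43 in KO against 8.24 and 8.06 in WT (0.21 ± 0.15). The groups did not overlap in 6 of the 17 other cytosolic and 3 of the 8 mitochondrial factors, against 37.9% of all tested probes.

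The promoter features were also set beside the measured differences. The 8 tested genes with CCGGAAGT in the window had a median log2 fold change of -0.08, with 3 higher and 5 lower in KO, against -0.06 for the 28 without it, 9 higher and 19 lower. The 7 tested genes with a C/T run at the start had a median of -0.02, 3 higher and 4 lower, against -0.07 for the 29 without one, 9 higher and 20 lower. Genes with the same letters at the start, such as Eif3f with 0.18 and Eif2b5 with -0.20, had differences of opposite sign.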

How the data were processed

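Total RNA of spleens was hybridised to 4 bead arrays, 2 KO and 2 WT. The authors deposited probe intensity values on a linear scale, exported from Illumina GenomeStudio without normalization. The deposited detection columns hold a fraction, headed as a p-value. They increased with the signal (rank correlation 0.975 to 0.991), so each was read as 1 minus the p. The authors also deposited a value table, which equals the log2 of the quantile normalized signals, uncentred (difference at most 5e-09, except for 1 probe of KO replicate 1), with column medians of 6.82. Scale and centring of that table were read from the values, since no source states them. The GenomeStudio version, slide and scan batch were not given by the sources.

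Signals were background-corrected with normexp (offset 16, negative controls inferred from the detection p), then quantile normalized on the log2 scale with neqc (limma 3.58.1, R 4.3.3). Probes with a detection p under 0.05 on both arrays of a group were tested, 12493 of 25697. A single gene symbol was listed for 23978 probes, several symbols for 0, and 1719 probes stayed unnamed. KO was compared with WT by lmFit and eBayes, which had 2 residual degrees of freedom and 5.04 in total, and p-values were adjusted over all tested probes (Benjamini-Hochberg). The fit was tested on simulated data, where the changes put in were larger than any member difference seen here. That test does not show whether differences of the members' size would be found. Arrays are biological duplicates and p-values measure the spread between these 4 samples, whose number limits the precision. No sources pair the arrays.

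Named were all eIF2α kinases, eIF2 and eIF2B subunits, up to 4 genes of each other class by smallest p and largest change, genes with probes of opposite sign, and the 2 genes of smallest p of each pathway list. Atf4, Slc4a1, Hba-a1, Lat, Ppp1r15a and the unmeasured members were added after their values were seen. So were Eif3j1, which joined its class under an alias, and the promoter windows printed. The members, classes, lists, this rule and the alternatives were chosen with earlier results of these data known. The alternatives were no background correction, an offset of 50, median scaling, the value table, a detection p below 0.01 on every array, no filter, an unmoderated test, a prior with trend and robust settings, averaging a gene's tested probes (for the median over genes only), a block for the replicate number, and dropping 1 array at a time. Promoter sequences and gene names came from RefSeq tables of GRCm38.p6. The files name no build.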

Additional observations from a re-analysis of the deposited data

How the results depend on the processing

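No member passed the threshold in any alternative fitted to single probes (0 in each), and the lowest adjusted p of a named member in any of them was 0.581 (limma). Averaging a gene's tested probes was run for the median over genes only. The median log2 fold change of the 45 genes stayed between -0.07 and 0.0014. The SD between replicates of their median log2 level was 0.11. It exceeds the size of the median fold change itself (-0.04), so lying within it does not show a stable sign. The count of member probes at an unadjusted p under 0.05 was 3, and 7 without a filter (of 95 probes) and 7 with the unmoderated test (of 71). Leaving out 1 array in turn gave 0 to 2, with 0 without WT replicate 1 and 1 without KO replicate 2. Among all tested probes 2 passed. The count was 0 with the value table, with the unmoderated test, without background correction and without a filter, 4 with an offset of 50 and 8 with the trend and robust prior, where the cause was not tested. Leaving out 1 array in turn gave 0 to 14, with 14 without WT replicate 1 and 0 without each of the others. With the replicate number as a block 0 probes and 0 members passed, 3 members were at an unadjusted p under 0.05 and the median was -0.04. The numbers mark no known pairing, and the deviations of KO replicate 1 and WT replicate 1 from their group means correlated at 0.188 across probes.

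The sign of 21 of 37 named members changed in at least 1 alternative fitted to single probes, 27 times in all, and 16 kept it in these. The filters, the replicate block and the choice of prior or moderation cannot change the log2 fold change of a probe. Other probes of 9 genes have the opposite sign, as the report gives them, and the averaged sign of a gene was not read. Median scaling turned Eef1g to -0.11, against 0.05. The other changes among these 27 came from leaving out 1 array, over which the log2 fold change ranged as follows. The range was Eef1akmt1 -0.034 to 0.15, Eef1aknmt -0.21 to 0.00050, Eef2 -0.21 to 0.17, Eif1a -0.24 to 0.092, Eif1ad -0.66 to 0.081. It was Eif1b -0.14 to 0.036, Eif2ak1 -0.65 to 0.41, Eif2ak3 -0.11 to 0.45, Eif2b2 -0.26 to 0.019, Eif2b4 -0.0047 to 0.14. It was Eif2d -0.27 to 0.067, Eif2s2 -0.027 to 0.10, Eif2s3x -0.33 to 0.068, Eif3b -0.064 to 0.11, Eif4a1 -0.24 to 0.039. It was Eif4e3 -0.25 to 0.31, Eif4ebp1 -0.11 to 0.27, Eif4ebp2 -0.26 to 0.053, Eif4g2 -0.35 to 0.11, Eif6 -0.084 to 0.26.

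With 2 arrays per group, the confidence intervals of the brightest probes bound differences at 2-fold for 44 of the 45 measured genes and at 1.5-fold for 32. By probe it was 70 and 43 of 71. For Eef1b2 the brightest probe lay within 1.5-fold, but the interval of a second probe was -0.85 to -0.09. Eif3j1 and Eif4e, whose probes were close to the background, are counted among the 45. The 13 genes whose probes were not above background have no level here.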
